A study of Mus musculus with 11 samples.

Results

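The 30 genes described here encode the machinery of GABA signalling, with the related glycine receptors: enzymes that make and break down GABA, its transporters, the chloride transporters that set its electrical effect, GABA-A and GABA-B receptor subunits, glycine receptor subunits, and proteins that anchor or traffic the receptors. They were chosen by gene symbol, and all 30 of the 30 symbols matched a row among the 39179 genes of the deposited count table. Other genes of these families are not analysed here.

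RNA was sequenced from GFP-positive cells sorted from V-SVZ tissue (the ventricular-subventricular zone, a germinal region lining the lateral ventricles) of CD1/Swiss mouse pups 2 days after birth. The 5 KO libraries carried Gsh2-Cre, 1 floxed and 1 null allele of Zeb2 (Zeb2fl/ko) and the Cre-dependent GFP reporter RCE. The 6 Ctrl libraries carried the same Cre and reporter with 1 floxed and 1 wild-type allele of Zeb2 (Zeb2fl/wt), so that their sorted cells are expected to keep 1 allele of this transcription factor gene, and those of the KO none. Gsh2-Cre acts in the lineage of the lateral ganglionic eminence and its neighbours, whereas the null allele of the KO animals is present in all of their cells. The labels do not say whether each library came from its own animal, so each p-value reflects only how far the libraries differ, which may be technical.

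GABA is made from glutamate by glutamate decarboxylase, loaded into vesicles, taken back up after release and broken down in mitochondria. GABA-A receptors and glycine receptors are chloride channels built from 5 subunits, and GABA-B receptors act through G proteins. In the postnatal V-SVZ, young neurons destined for the olfactory bulb release GABA, which acts on neighbouring neuroblasts and stem cells, and immature neurons hold so much chloride that GABA can excite them.

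Depth was 9180749 to 13073505 counts in KO libraries and 6833981 to 12050518 in Ctrl libraries. The cells expressed Dlx1, a homeobox gene of GABAergic forebrain neurons, at 748 to 852 CPM (each count scaled to a common library total) in KO libraries, against 633 to 1037 CPM in Ctrl libraries. The related Dlx2 averaged 715 ± 45.4 CPM in KO libraries (SD, n = 5) and 771 ± 218 CPM in Ctrl libraries (SD, n = 6). Summed markers of microglia reached at most 8.13 CPM in KO libraries and 8.99 CPM in Ctrl libraries. Those of choroid plexus and ependyma stood at 202 CPM in KO 5 and at no more than 9.82 CPM in any other library. In KO 5, Ttr alone made up 193 CPM of that sum, with Folr1 at 4.48 CPM, Foxj1 at 3.78 CPM and Kl and Tmem212 at 0. Of the marker lists, 3 had sums that did not overlap between the groups. The 8 markers of interneurons of the medial ganglionic eminence (MGE) summed to 2381 to 3643 CPM in KO libraries and 374 to 674 CPM in Ctrl libraries, and 5 of the 8 passed the test higher and 1 lower. The 10 striatal projection neuron markers summed to 336 to 513 CPM in KO libraries and 648 to 1916 CPM in Ctrl libraries, with 1 higher and 6 lower. The 8 olfactory bulb interneuron markers summed to 1173 to 1668 CPM in KO libraries and 654 to 1037 CPM in Ctrl libraries, with Calb2, Pax6 and Prokr2 higher and 0 lower; the other 5 (Th, Sp8, Sp9, Tshz1 and Etv1) had negative log2 fold changes that did not pass. Among lists whose sums overlapped, Cdk1 and Ccnb1 of the 6 cycling cell markers were lower (sums of 148 to 274 CPM in KO libraries and 248 to 523 CPM in Ctrl libraries), as was Gpr17 of the 6 oligodendrocyte precursor markers (588 to 983 CPM in KO libraries and 820 to 2369 CPM in Ctrl libraries). Rbfox3 of the 6 young neuron markers and Neurod1 of the 7 excitatory neuron markers were higher. Zeb2 itself was not lower in the KO libraries, at 302 ± 71.5 CPM (SD, n = 5) against 239 ± 48.9 CPM in Ctrl libraries (SD, n = 6; adjusted p = 0.294). The labels do not say which exons the floxed allele loses, and a count over the whole gene may include others, so this does not check the genotype and the directions below rest on the labels. Reads of Y-linked genes were present in Ctrl 1, 2, 3 and 6 and absent from Ctrl 4, Ctrl 5 and all KO libraries, so genotype and sex are partly confounded.

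Of the 30 genes, 27 passed the filter on low counts and were tested with edgeR's quasi-likelihood test, at a Benjamini-Hochberg adjusted p under 0.05 over all genes tested. Gad2 and Abat rose in the KO libraries, none fell, and 25 did not pass. The share called higher was 7.41% of the tested members, where 2.68% of all 14104 genes tested were called higher, 1.74% lower and 4.42% in either direction. At an unadjusted p under 0.05 with edgeR, 6 members were higher and 3 lower, where 17.3% of all genes tested were past that cut in either direction. DESeq2 and limma-voom also called 0 lower. The median log2 fold change of the 27 was 0.19, against -0.02 over all genes tested, and 18 of the 27 had a positive value, where 47.8% of all genes did. In bulk RNA a larger number of cells of one type and more RNA per cell cannot be told apart.

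**Figure D1:**
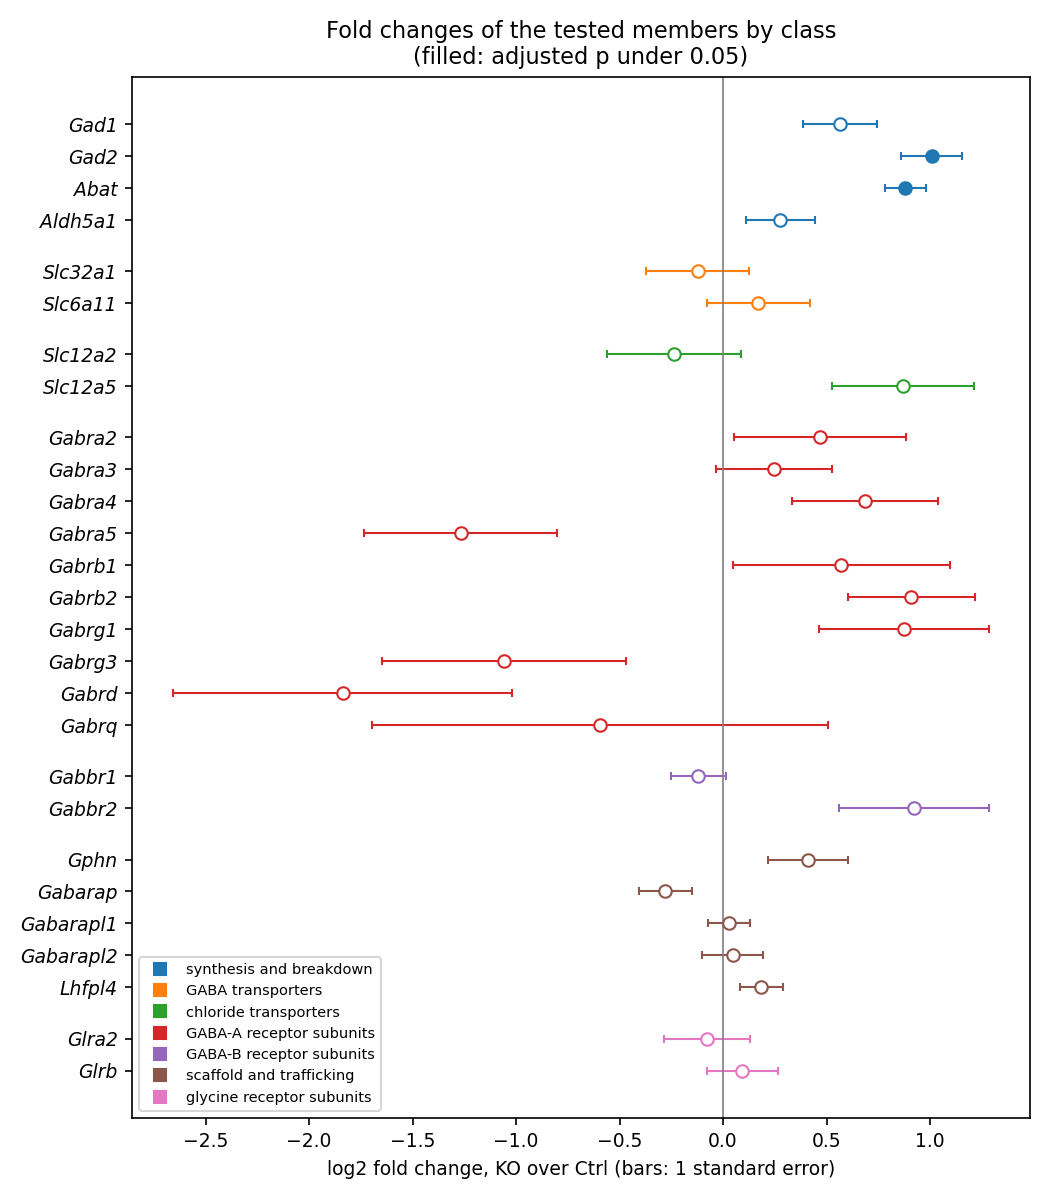
Log2 fold change, KO over Ctrl, of the 27 tested members, grouped by class, with bars of 1 standard error. The filled points of Gad2 (1.01) and Abat (0.88) passed the adjusted p threshold of 0.05; the open points did not.

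Of the 2 glutamate decarboxylase genes, Gad2 passed the test and Gad1 did not. Gad2 encodes the form held at synaptic vesicles and Gad1 the form found throughout the cell body. The exon-free stretch upstream of the RefSeq start of each gene is shown as a description, and its part in their levels was not tested. Both are on chromosome 2 of GRCm38.p6, plus strand, read from the RefSeq promoter table, with capitals marking CACCT on either strand (CACCT or AGGTG), the core letters bound by Zeb-family proteins, and the G or C that extends it to CACCTG or CAGGTG.
Gad2, chr2:22622077-22622204: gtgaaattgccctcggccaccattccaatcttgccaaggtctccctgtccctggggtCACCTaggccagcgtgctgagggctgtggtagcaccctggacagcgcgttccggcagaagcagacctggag
Gad1, chr2:70561879-70562041: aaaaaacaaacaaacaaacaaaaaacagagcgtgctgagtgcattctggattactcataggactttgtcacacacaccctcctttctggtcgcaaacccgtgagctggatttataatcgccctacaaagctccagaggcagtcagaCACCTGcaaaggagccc

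The Gad2 stretch holds 1 CACCT, which begins 193 bases before the RefSeq start, and no CACCTG. The Gad1 stretch, which lies within an intron of longer GENCODE models of the gene, holds 1 CACCTG, 104 bases before the start. Over the 250 bases upstream of each start, 10 of 31 windows of the 26 members in the RefSeq table held CACCTG or CAGGTG (32.3%), and 17.2% of all 32851 windows did. The 5-letter core, which lies inside CACCTG, was found in 61.3% of member windows and 46.0% of all windows. These are matches of letters only, and no binding was measured.

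Gad2 (ENSMUSG00000026787, chromosome 2, 22622205 to 22693874, plus strand, GRCm38) stood at 687, 643, 754, 725 and 523 CPM in KO 1 to 5. The Ctrl libraries lay between 212 and 419 CPM, with a median of 325 CPM. All 5 KO libraries were above all 6 Ctrl libraries, with Ctrl 6 the lowest of all. Gad2 averaged 666 ± 90.1 CPM in KO libraries (SD, n = 5) and 335 ± 76.8 CPM in Ctrl libraries (SD, n = 6), which is 2.01-fold higher in KO (log2 fold change 1.01, SE 0.148, adjusted p = 0.000894). It kept its call in the 11 fits that left out 1 library each and among the libraries without Y-linked reads (5 KO against 2 Ctrl; log2 fold change 0.69, adjusted p = 0.0379), but lost it when Y-linked level was added as a covariate (0.72, adjusted p = 0.0746).

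Gad1 (ENSMUSG00000070880) stood at 528, 382, 690, 417 and 292 CPM in the KO libraries, against 258 to 408 CPM in the Ctrl libraries, with a median of 312 CPM. KO 1, 3 and 4 were above every Ctrl library, and KO 2 and 5 lay within their range. The difference did not pass the test (log2 fold change 0.56, SE 0.18, adjusted p = 0.0996). Without KO 5, the lowest KO library for Gad1, it did (0.67, adjusted p = 0.0383). Per kilobase of exon, Gad2 averaged 113 CPM and Gad1 60.4 CPM in KO libraries, and Gad2 57.0 CPM and Gad1 41.2 CPM in Ctrl libraries.

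A ratio within a library does not depend on how libraries are scaled. The counts of Gad2 over those of Gad1 came to 1.30, 1.69, 1.09, 1.74 and 1.79 in KO 1 to 5, against 0.824 to 1.26 with a median of 1.04 in Ctrl libraries. KO 3 lay within the Ctrl range and the other 4 KO libraries above it. The mean log2 ratio was higher in KO by 0.51 (exact two-sided permutation p = 0.013 over 462 splits; 0.026 when adjusted over the 2 ratios tested). Without Ctrl 1 and Ctrl 4 the difference was 0.500 (exact permutation p = 0.0556), and among libraries without Y-linked reads it was 0.40 (exact permutation p = 0.238; 21 splits can give no less than 0.0476).

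**Figure D2:**
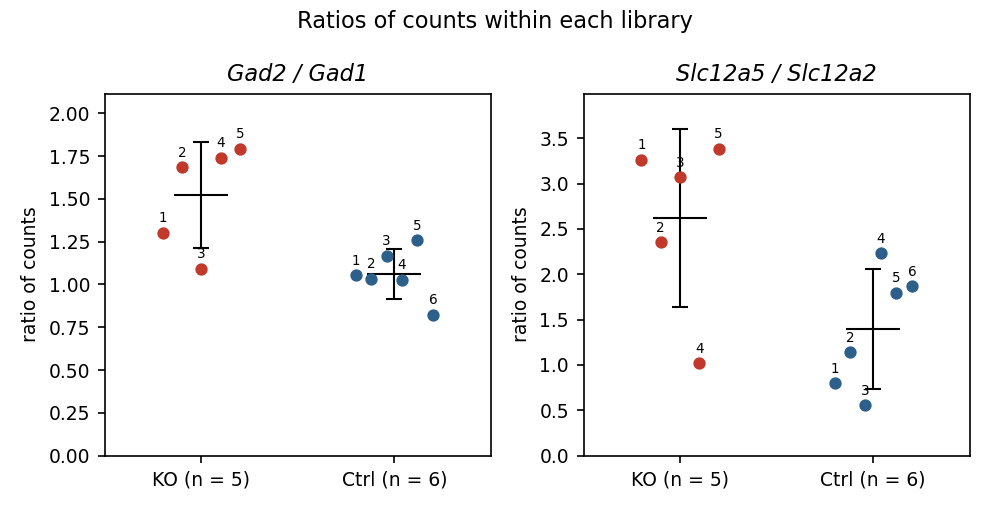
Ratio of the counts of Gad2 to Gad1 (left) and of Slc12a5 to Slc12a2 (right) in each library; points are libraries with their replicate number, and bars the mean ± SD of 5 KO and 6 Ctrl libraries. For Gad2 over Gad1, 4 of 5 KO libraries exceed the highest Ctrl value of 1.26; for Slc12a5 over Slc12a2, KO 4 (1.02) lies among the Ctrl libraries.

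Breakdown of GABA begins with Abat, which encodes the mitochondrial GABA transaminase. Abat (ENSMUSG00000057880, chromosome 16, 8513429 to 8621568, plus strand) stood at 585, 471, 584, 519 and 405 CPM in KO 1 to 5. The 6 Ctrl libraries lay close together, from 241 to 310 CPM with a median of 284 CPM, and none reached the lowest KO library. Means were 513 ± 76.7 CPM in KO (SD, n = 5) and 281 ± 24.2 CPM in Ctrl (SD, n = 6), a 1.84-fold difference (log2 fold change 0.88, SE 0.1003, adjusted p = 0.000103). Its call held in every fit without 1 library, among libraries without Y-linked reads (0.78, adjusted p = 0.0287) and with the Y-linked covariate (0.78, adjusted p = 0.0164). Aldh5a1, which encodes the next enzyme of the pathway, succinic semialdehyde dehydrogenase, did not pass. It had 49.2, 48.7, 72.5, 79.9 and 43.7 CPM in KO libraries, against 42.1 to 56.2 CPM in Ctrl libraries, and only KO 3 and KO 4 exceeded the Ctrl range (log2 fold change 0.28, SE 0.168, adjusted p = 0.431). Exons of Aldh5a1 overlap an opposite-strand transcript at 1.44 CPM.

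Summed over the 4 genes of synthesis and breakdown, KO libraries held 1264 to 2099 CPM and Ctrl libraries 786 to 1193 CPM. Gad2 and Abat were also the 2 of the 27 tested members whose groups did not overlap, where 4.99% of all genes tested did not. Their direction was that of the MGE interneuron marker sum and of the olfactory bulb interneuron sum, in which 3 of 8 markers were higher and the other 5 had negative values, and opposite to that of the striatal sum. The part of these markers in the result was not tested.

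**Figure D3:**
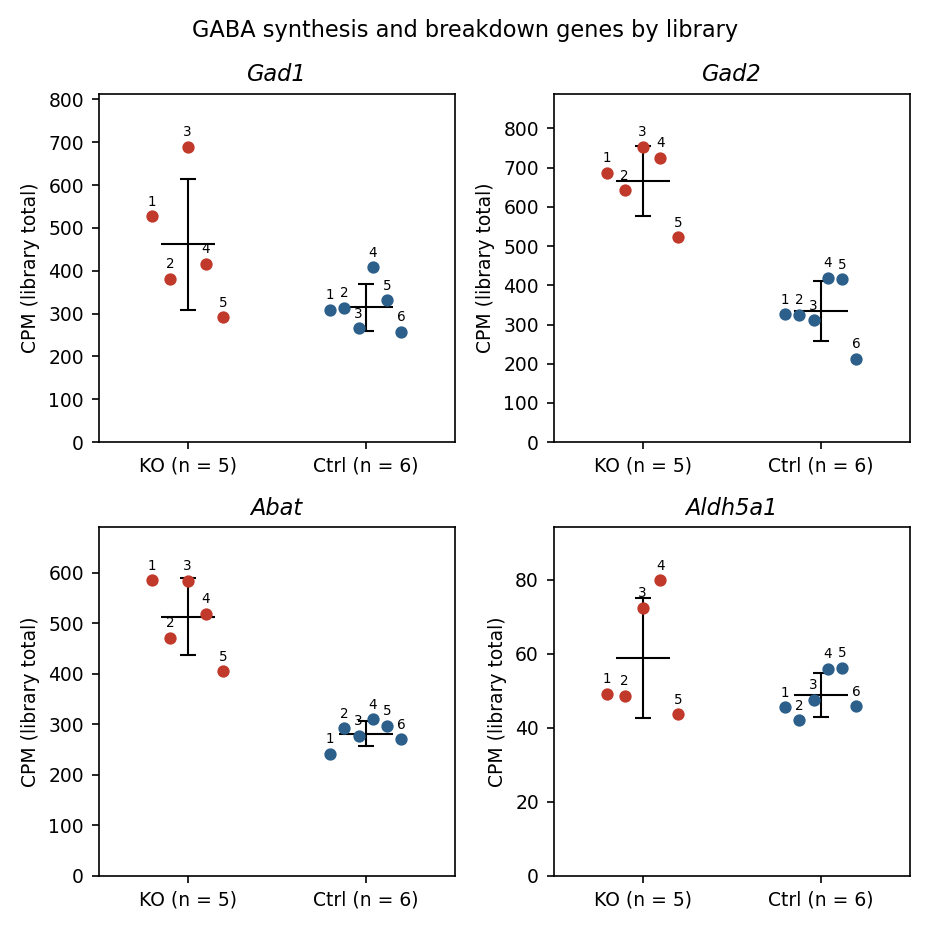
CPM by library total of Gad1, Gad2, Abat and Aldh5a1 in each library, with replicate numbers; bars are the mean ± SD of 5 KO and 6 Ctrl libraries. Every KO library is above every Ctrl library for Gad2 and Abat, and the groups overlap for Gad1 and Aldh5a1.

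Neither GABA transporter passed the test. Slc32a1, the vesicular transporter that loads GABA and glycine, was low, at 5.43 to 6.32 CPM in KO libraries and 4.71 to 8.69 CPM in Ctrl libraries (log2 fold change -0.12, SE 0.248, adjusted p = 0.858). Per kilobase of exon its mean of 2.12 CPM in KO libraries and 2.34 CPM in Ctrl libraries was far under that of either decarboxylase gene. Slc6a11, a plasma membrane GABA transporter found mainly on astrocytes, stood at 29.3, 30.7, 35.0, 27.9 and 39.3 CPM in KO libraries and spread from 18.4 to 43.8 CPM in Ctrl libraries (adjusted p = 0.79). Its lowest values, in Ctrl 1 and Ctrl 4, were in the Ctrl libraries with the lowest sums of the 8 radial glia and astrocyte markers (783 to 1670 CPM in KO libraries, 782 and 933 CPM in Ctrl 1 and Ctrl 4, and 1159 to 1758 CPM in the other Ctrl libraries). The KO libraries did not show this match. KO 2, with the lowest KO sum (783 CPM), had 30.7 CPM of Slc6a11. KO 4, with the highest KO sum (1670 CPM), had the lowest KO value, 27.9 CPM. The part of these cells in the spread of Slc6a11 was not tested.

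The chloride transporters set the direction of current through GABA-A receptors: Slc12a2 brings chloride in and Slc12a5 takes it out. Slc12a5 had 38.7, 44.6, 47.5, 13.5 and 46.3 CPM in KO 1 to 5, against 10.7 to 40.4 CPM with a median of 18.8 CPM in Ctrl libraries. KO 4 lay among the low Ctrl libraries and Ctrl 5 among the high KO libraries, and the difference did not pass (log2 fold change 0.87, SE 0.343, adjusted p = 0.197). Slc12a2 ranged from 11.8 to 19.0 CPM in KO libraries and from 6.64 to 33.7 CPM in Ctrl libraries (log2 fold change -0.24, SE 0.323, adjusted p = 0.776). The ratio of their counts was 3.27, 2.35, 3.07, 1.02 and 3.39 in KO 1 to 5, against 0.56 to 2.23 with a median of 1.47 in Ctrl libraries. The mean log2 ratio differed by 0.945 (exact two-sided permutation p = 0.0779, equal after adjustment over the 2 ratios), by 1.26 without KO 4 (exact permutation p = 0.0238), and by 0.27 among libraries without Y-linked reads (exact permutation p = 0.762).

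No GABA-A receptor subunit passed the test: 10 of the 11 were tested, 6 had a positive and 4 a negative log2 fold change. With edgeR 3 of the 10 had an unadjusted p under 0.05, where 17.3% of all genes did, and DESeq2 and limma-voom called 0. The sum of the 11 was 213, 168, 221, 197 and 143 CPM in KO 1 to 5. In the Ctrl libraries it was 67.9, 99.3 and 106 CPM in Ctrl 1, 4 and 6, but 220, 192 and 258 CPM in Ctrl 2, 3 and 5. All KO sums lay inside the Ctrl range, and the SD was 32.4 CPM over KO libraries and 76.4 CPM over Ctrl libraries. Ctrl 1 and Ctrl 4 also had the highest young neuron marker sums of any library (5961 to 7113 CPM in KO libraries, 7369 and 7164 CPM in Ctrl 1 and Ctrl 4, and 6231 to 6821 CPM in the other Ctrl libraries). Of the 6 markers, Tubb3 (4403 and 4120 CPM) and Stmn2 (1482 and 1559 CPM) were above their Ctrl means in Ctrl 1 and Ctrl 4. Dcx, Map2, Snap25 and Rbfox3 were below theirs, and Rbfox3 was at its lowest of all libraries there (13.9 and 17.4 CPM). Ctrl 6, whose GABA-A sum was also low, had a young neuron sum of 6821 CPM. The part of these markers in the GABA-A sums was not tested.

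Among the alpha subunits, which with the beta subunits form the GABA binding site, Gabra3 was the most abundant per length in KO libraries. It averaged 9.83 CPM per kilobase there and 8.36 in Ctrl libraries, where Gabra5 averaged 9.14. Gabra3 lies on the X chromosome and had 20.2 to 47.2 CPM in KO libraries and 17.4 to 51.4 CPM in Ctrl libraries (log2 fold change 0.25, SE 0.279, adjusted p = 0.721). Gabra2, an alpha gene of synaptic receptors, and Gabra4, one of extrasynaptic receptors, had log2 fold changes of 0.47 and 0.69 (SE 0.416 and 0.352, adjusted p = 0.625 and 0.339). Gabra2 had 15.2 to 30.5 CPM in KO libraries and 4.25 to 28.5 CPM in Ctrl libraries, where Ctrl 4 and Ctrl 1 were the lowest.

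Gabra5, an alpha gene of extrasynaptic receptors, had a negative log2 fold change. It stood at 8.55, 17.4, 10.3, 8.72 and 10.2 CPM in KO 1 to 5. Ctrl 2 to 5 held 30.0, 27.8, 31.2 and 58.8 CPM, above every KO library, whereas Ctrl 1 and Ctrl 6 held 10.4 and 4.91 CPM. The difference did not pass over all libraries (log2 fold change -1.27, SE 0.466, adjusted p = 0.161). It passed without Ctrl 6 (-1.49, adjusted p = 0.0264), and among the libraries without Y-linked reads, where the Ctrl libraries are Ctrl 4 and 5 alone (-1.99, adjusted p = 0.0133; 1.46% of all genes were called there). With the Y-linked covariate it did not (-1.86, adjusted p = 0.13). As a share of the 4 alpha genes listed here, per kilobase, Gabra5 made up 14.3% to 27.0% in KO libraries, against 13.6% in Ctrl 6 and 34.6% to 61.9% in the other 5 Ctrl libraries. The striatal projection neuron marker sum, lower in every KO library, was lowest among Ctrl libraries in Ctrl 1 and Ctrl 6 too, at 648 and 941 CPM. The match was not close. Ctrl 4, with 31.2 CPM of Gabra5, had a sum of 1051 CPM, near that of Ctrl 6. Among KO libraries, KO 1 had the highest sum (513 CPM) and the lowest Gabra5 (8.55 CPM). The part of this marker sum in the level of Gabra5 was not tested.

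The beta subunit genes, whose products also carry the receptor's links to trafficking proteins, had positive log2 fold changes that did not pass. Gabrb2 stood at 76.5, 41.5, 76.9, 70.2 and 50.8 CPM in KO libraries, against 14.2 to 65.9 CPM with a median of 31.8 CPM in Ctrl libraries (log2 fold change 0.91, SE 0.307, adjusted p = 0.121). Ctrl 5 alone lay above the lowest KO libraries, and without it Gabrb2 was past the threshold (1.20, adjusted p = 0.0182). As a share of the 11 subunits per kilobase, Gabrb2 was 20.1% to 32.9% in KO libraries with a median of 32.5%, and had a median of 16.8% in Ctrl libraries, with Ctrl 6 just under the lowest KO library. Gabrb1 was lower, at 8.18 to 17.2 CPM in KO libraries and 1.32 to 18.5 CPM in Ctrl libraries (log2 fold change 0.57, SE 0.523, adjusted p = 0.638). Exons of Gabrb1 and Gabra4 overlap by 46 bases on opposite strands.

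The gamma subunits, which place receptors at synapses and confer benzodiazepine sensitivity, diverged in sign without passing. Gabrg1 had 21.0, 15.0, 17.5, 20.5 and 9.99 CPM in KO libraries and 2.93 to 21.1 CPM in Ctrl libraries (log2 fold change 0.87, SE 0.41, adjusted p = 0.289). Gabrg3 had 10.52, 3.43, 13.7, 0.459 and 2.60 CPM in KO libraries and 5.85 to 19.0 CPM in Ctrl libraries (log2 fold change -1.06, SE 0.59, adjusted p = 0.386). Of these 2 genes per kilobase, Gabrg1 made up 66.0% to 98.5% in KO libraries and 39.8% to 67.5% in Ctrl libraries, where Ctrl 3 alone reached above the lowest KO library.

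The rarer subunits had few or no counts in some libraries. Gabrd, the delta subunit of extrasynaptic receptors, held 3, 20, 17, 0 and 23 counts in KO 1 to 5 and 5 to 87 counts in Ctrl libraries (log2 fold change -1.84, SE 0.819, adjusted p = 0.26). The X-linked Gabrq, the theta subunit, ranged from 0 to 3.72 CPM in KO libraries and from 0 to 5.81 CPM in Ctrl libraries (adjusted p = 0.844). Gabre, the epsilon subunit, was not tested, with 24 counts over the KO libraries, 17 of them in KO 1, and 6 over the Ctrl libraries. A count of 0 allows up to 3 counts, or 0.229 to 0.439 CPM per library, for counting error only.

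**Figure D4:**
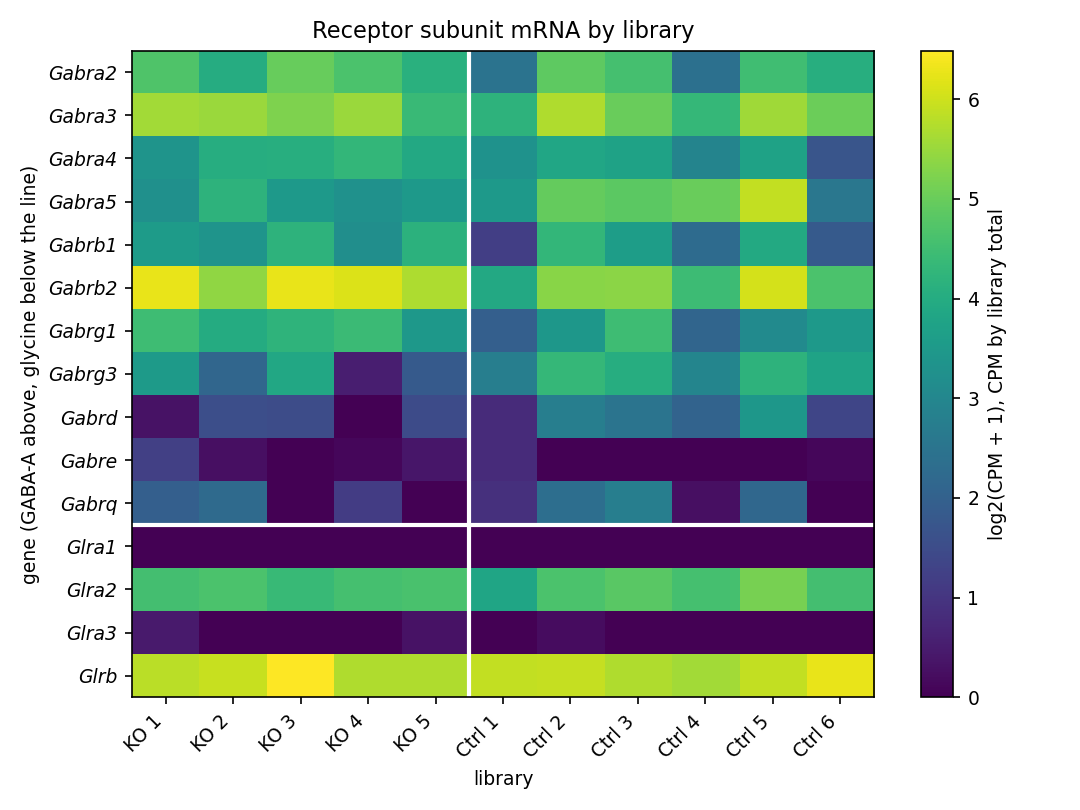
Level of each GABA-A (above the white line) and glycine receptor subunit gene in each library, as log2(CPM + 1), with KO libraries left and Ctrl libraries right of the white line. Ctrl 1 and Ctrl 4 are darker than the other libraries for Gabra2 and Gabrg1, and Gabra5 is brightest in Ctrl 5 (58.8 CPM).

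The GABA-B receptor works as a pair, in which Gabbr1 binds GABA and Gabbr2 couples to the G protein. Neither passed the test with edgeR (1 of the 2 at an unadjusted p under 0.05, none with DESeq2 or limma-voom). Gabbr1 stood at 120 to 171 CPM in KO libraries and 136 to 198 CPM in Ctrl libraries (log2 fold change -0.12, SE 0.133, adjusted p = 0.716). Gabbr2 had 22.6, 27.7, 16.1, 22.4 and 5.19 CPM in KO 1 to 5, against 6.22 to 15.5 CPM in Ctrl libraries with a median of 8.35 CPM. KO 1 to 4 were above every Ctrl library and KO 5 below all of them (log2 fold change 0.92, SE 0.361, adjusted p = 0.194), and without KO 5 it was past the threshold (1.15, adjusted p = 0.0383). Per kilobase, Gabbr1 exceeded Gabbr2 in both groups, at 18.4 and 2.81 CPM in KO libraries and 20.3 and 1.49 CPM in Ctrl libraries.

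Of the 5 scaffold and trafficking genes, with log2 fold changes of both signs, none passed (edgeR called 0, with 1 at an unadjusted p under 0.05; DESeq2 and limma-voom called 0). Gphn, which encodes gephyrin, the scaffold under inhibitory synapses, stood at 72.4 to 108 CPM in KO libraries and 37.3 to 94.6 CPM in Ctrl libraries (log2 fold change 0.41, SE 0.194, adjusted p = 0.293). Lhfpl4, a membrane partner needed for GABA-A receptor clustering, had 164 to 214 CPM in KO libraries and 147 to 185 CPM in Ctrl libraries (0.19, SE 0.104, adjusted p = 0.387). Gabarap, an autophagy and trafficking protein that binds gamma subunits, had the highest level per kilobase of all 30 genes, 151 CPM in KO and 185 CPM in Ctrl libraries. It had 236 to 314 CPM in KO libraries and 298 to 439 CPM in Ctrl libraries (-0.28, SE 0.126, adjusted p = 0.271). Its relatives Gabarapl1 and Gabarapl2 had log2 fold changes of 0.03 and 0.05 (SE 0.101 and 0.149).

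Of the glycine receptor genes, Glra2, the alpha subunit of the immature brain, and Glrb, the beta subunit that binds gephyrin, were expressed. The X-linked Glra2 had 19.6 to 24.2 CPM in KO libraries and 13.2 to 34.9 CPM in Ctrl libraries (log2 fold change -0.08, SE 0.207, adjusted p = 0.898). Glrb had 51.5 to 88.7 CPM in KO libraries and 47.0 to 75.9 CPM in Ctrl libraries (0.09, SE 0.17, adjusted p = 0.841). Glra1, the alpha subunit of the mature spinal cord and brainstem, had 0 counts in all 11 libraries, and Glra3 had 8 counts over the KO libraries and 2 over the Ctrl libraries.

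A list of 63 further genes of this pathway covered other transporters, precursor supply, chloride regulation, rarer subunits, receptor partners and transcription factors of GABAergic identity. Of these, 62 matched and 50 were tested. Of the 50, 4 rose, none fell and 46 did not pass (8.0% called higher, where 2.68% of all genes tested were). The median log2 fold change of the 50 was 0.07, against -0.02 over all genes tested. With edgeR 9 were higher and 2 lower at an unadjusted p under 0.05, where 17.3% of all genes tested were past that cut in either direction. DESeq2 and limma-voom called 0 lower. All 4 called genes belong to the 22 receptor partners and trafficking genes: Hap1, Kctd16, Nsf and Dmd. The groups did not overlap for these 4 of the 50, where 4.99% of all genes tested did not.

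Hap1, which encodes huntingtin-associated protein, a factor in the return of GABA-A receptors to the surface, had 166, 215, 222, 169 and 164 CPM in KO 1 to 5. The Ctrl libraries had 44.2 to 81.9 CPM, with a median of 49.6 CPM, and no library of one group reached the other. Hap1 (ENSMUSG00000006930, chromosome 11, 100347327 to 100356128, minus strand) was 3.49-fold higher in KO (log2 fold change 1.80, SE 0.17, adjusted p = 1.94e-05; 2.05 among libraries without Y-linked reads, adjusted p = 0.00034).

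Kctd16 encodes an auxiliary subunit that binds the GABA-B receptor and shapes its response. It had 30.0, 27.0, 35.1, 37.3 and 11.8 CPM in KO 1 to 5, against 1.32 to 7.79 CPM in Ctrl libraries with a median of 3.87 CPM. KO 5 was the lowest KO library and still above Ctrl 5, the highest Ctrl library. Kctd16 (ENSMUSG00000051401, chromosome 18, 40256962 to 40531630, plus strand) was 7.10-fold higher in KO (log2 fold change 2.83, SE 0.368, adjusted p = 0.00035; 2.45 among libraries without Y-linked reads, adjusted p = 0.0437). The other auxiliary genes of that family did not pass, with log2 fold changes of 2.08 for Kctd12 (SE 0.658, adjusted p = 0.0973), -0.75 for Kctd8 (SE 0.422) and 0.28 for Kctd12b (SE 0.474).

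Nsf encodes the ATPase that recycles membrane fusion complexes and binds GABA-A receptor beta subunits. It had 158 to 192 CPM in KO libraries and 102 to 143 CPM in Ctrl libraries, with no overlap (log2 fold change 0.63, SE 0.107, adjusted p = 0.00274). Dmd, the X-linked gene of dystrophin, a component of some inhibitory synapses, had 64.1, 43.5, 50.4, 62.0 and 62.1 CPM in KO libraries and 9.80 to 35.7 CPM in Ctrl libraries (log2 fold change 1.36, SE 0.267, adjusted p = 0.00765). Among libraries without Y-linked reads neither passed, with log2 fold changes of 0.61 and 1.43 (adjusted p = 0.0569 and 0.0522). With the Y-linked covariate neither passed either (0.57 and 1.44, adjusted p = 0.119 and 0.13).

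**Figure D5:**
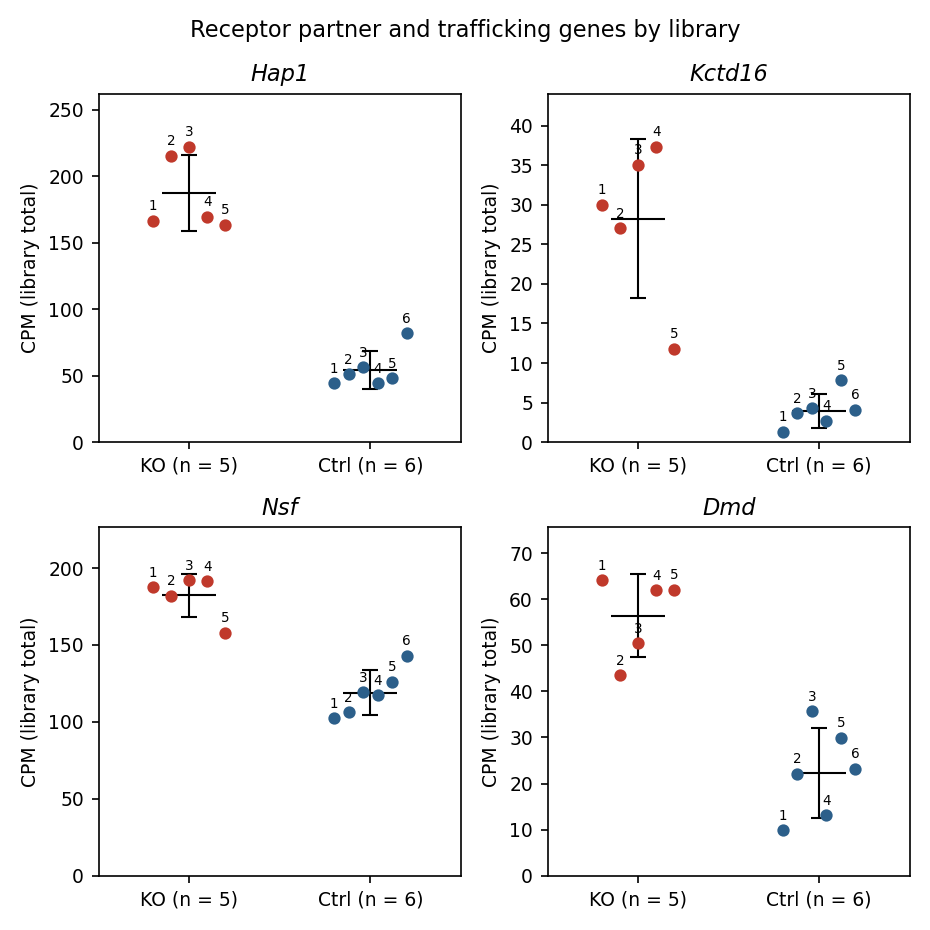
CPM by library total of Hap1, Kctd16, Nsf and Dmd in each library, with replicate numbers; bars are the mean ± SD of 5 KO and 6 Ctrl libraries. For each gene every KO library is above every Ctrl library.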

How the data were processed

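The authors deposited raw read counts per Ensembl gene, with 1 column per library. Per the submitters' processing notes, the tools included TopHat2 2.0.13 and featureCounts 1.4.6, with builds mm10 and GRCm38. Strand setting, annotation release and treatment of multiply aligned reads: not given in the sources used here. Hence reads of genes overlapping on opposite strands cannot be told apart. Symbols, exon lengths and coordinates came from GENCODE M21 (GRCm38).

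CPM values were scaled by library totals. Tests used edgeR 4.0.16 in R 4.3.3 (filterByExpr, TMM, robust quasi-likelihood fit, Benjamini-Hochberg over 14104 genes, threshold 0.05); adjusted p-values of genes come from it. SE is the log2 fold change over the square root of F. Ratios used exact permutation over libraries. On simulated data the fit recovered 42.7% of 2-fold and 84.8% of 4-fold changes, with 5 false calls. A gene that did not pass is therefore not shown to be unchanged. No replicate pair agreed within sampling noise (lowest chi-square per df 13.7).

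The members, lists and rules were chosen with earlier results of these data known. Values and statistics are given for members that passed and for the most abundant of each class; for completeness the rest are given more briefly, and up to 10 called pathway genes are named. Gabra5, Gabrb2, Gabbr2, Kctd12, Kctd8 and Kctd12b were described at length after their values were seen. Alternatives were other normalisations, filters, tools (DESeq2 1.42.0, limma 3.58.1) and thresholds, each library left out, a replicate block, Y-linked reads, and Gm42418, a gene holding 6.25% to 12.2% of counts, left out. Leaving out Ctrl 1 and Ctrl 4 together was chosen after seeing the data.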

Additional observations from a re-analysis of the deposited data

Results flagged for a closer look

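In 3 of 58 groups of libraries (each tested member and each ratio, in each genotype), 1 library stood apart from the rest of its group by Dixon's criterion, which chance alone meets in about 1 in 20 groups. Slc12a5 stood at 13.5 CPM in KO 4, against 38.7 to 47.5 CPM in the other KO libraries. Gabra5 stood at 17.4 CPM in KO 2, against 8.55 to 10.3 CPM in the other KO libraries. Glrb stood at 88.7 CPM in KO 3, against 51.5 to 60.8 CPM in the other KO libraries.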

How the results depend on the processing

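Gad2 and Abat were the called members under each normalisation, filter and tool tried, at a threshold of 0.01, without Gm42418 and without Ctrl 1 and Ctrl 4 together; Hap1, Kctd16, Nsf and Dmd were called under all of these too, and DESeq2 added Kctd12. A threshold of 0.1 added Gad1 and Kctd12. Over all genes edgeR called 623, against 186 with the Y-linked covariate and 218 among libraries without Y-linked reads. With the Y-linked covariate 1 member (Abat) and 2 pathway genes (Hap1 and Kctd16) were called, and among libraries without Y-linked reads 2 pathway genes (the same), with Gad2 and Abat still called higher and 1 member called lower (Gabra5). Over the fits without 1 library, 2 to 4 members were called higher (4 without KO 5, where Gad1 and Gabbr2 were added) and 0 to 1 lower (1 without Ctrl 6, Gabra5). The titles give the groups the same replicate numbers, but same-numbered libraries did not deviate together (correlations -0.137 to 0.021). With a replicate block, which drops Ctrl 6, 2 members were called higher and 1 lower (Gabra5, log2 fold change -1.36, adjusted p = 0.0444). The share of all genes called is not given here for this fit or for those without 1 library. The added calls in them therefore cannot be set against a general rise in calls. The log2 ratio of Slc12a5 to Slc12a2 differed by 0.712 to 1.26 in the fits without 1 library, and that of Gad2 to Gad1 by 0.437 to 0.621; the Gad2 to Gad1 difference was 0.397 among libraries without Y-linked reads and 0.500 without Ctrl 1 and Ctrl 4. Sign changes were seen in 13 of 806 recomputed log2 fold changes, all of members not called: Slc12a2 ranged from -0.405 to 0.0514 in the fits without 1 library (positive without Ctrl 3) and was at 0.0863 with the Y-linked covariate and 0.0512 among libraries without Y-linked reads; Gabbr1 at 0.0313 and 0.0618 in those last 2 settings; Gabarapl2 from -0.0287 to 0.109 (negative without KO 3 and, at -0.0135, without Ctrl 3) and at -0.0289 with the covariate; Gabarapl1 from -0.0181 (without KO 5) to 0.0732; Glra2 from -0.194 to 0.0522 (without Ctrl 5); Glrb from -0.0717 (without KO 3) to 0.187; and Slc6a11 and Gabra3 at -0.0631 and -0.0345 without Ctrl 1 and Ctrl 4. The causes were not tested. Depth limits what can be said of Gabrd, Gabre, Gabrq, Glra1 and Glra3.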

Other observations

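Dlx1 and Dlx2, transcription factor genes of GABAergic neurons, did not pass the test with edgeR (adjusted p = 1.0 and 0.821). Dlx1, at 799.8 ± 46.6 CPM in KO libraries (SD, n = 5) and 808 ± 163 CPM in Ctrl libraries (SD, n = 6), and Dlx2 were highest in Ctrl 1 and Ctrl 4, the 2 libraries with the lowest GABA-A receptor sums. Of 11 tested genes of chloride transport and its kinases, edgeR, DESeq2 and limma-voom called 0, and 2 (Oxsr1 and Wnk3, kinases that act on the chloride transporters) were higher at an unadjusted p under 0.05, a share near the 17.3% of all genes tested that were past that cut in either direction. The GABA and glycine uptake transporter genes Slc6a13, Slc6a12 and Slc6a5 held 0, 5 and 0 counts over the KO libraries and 12, 0 and 0 over the Ctrl libraries.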
